A study of Rattus norvegicus with 4 samples.

Results

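The 7 genes described here, Cntn1, Cntnap1, Nfasc, Nrcam, Ank3, Sptbn4 and Gldn, encode the adhesion molecules and the membrane skeleton that build the node of Ranvier and the paranodes beside it. They were found as the protein-coding rows of the deposited count table that carry these gene names, and the 7 names matched 7 of its 22293 protein-coding genes. Lumbar dorsal root ganglia (DRGs), where sensory neuron somata lie with the first stretch of their axons and several kinds of glia, were sequenced as 4 libraries from wild-type neonatal Wistar rats. The study asked how early-life exposure to cisplatin, a platinum-based chemotherapeutic that causes sensory neuropathy, alters the DRG. The 2 vehicle-treated rats received PBS, and the 2 cisplatin-treated rats received cisplatin at 0.3 mg/kg, injected intraperitoneally on P14 and P16 (P, postnatal day). The labels place the collection of DRGs 16 days after treatment, while the study's methods place it at P23. Several lumbar DRGs were pooled for each library, and the sex of the rat behind each library was not stated in the sources used here.

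At a node of Ranvier, the gap between neighbouring stretches of myelin, voltage-gated sodium and potassium channels are packed into the axonal membrane so that the action potential can jump from node to node. At the paranode on either side, the loops of the Schwann cell are sealed to the axon by a junction that keeps the channels apart. On the axon this junction is made of contactin-1 (Cntn1) and Caspr (Cntnap1), which bind a glial form of neurofascin (Nfasc). At the node, a neuronal form of neurofascin and NrCAM (Nrcam) bind gliomedin (Gldn), which Schwann cells secrete from their microvilli, and are anchored through ankyrin-G (Ank3) to beta-IV spectrin (Sptbn4). Counts per gene cannot tell the glial from the neuronal neurofascin, nor the several forms of ankyrin-G.

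The 7 genes lie on 7 chromosomes. In the Rnor_6.0 coordinates of the deposited table, Cntn1 (ENSRNOG00000004438) was at chr7:133400485-133586677 and Cntnap1 (ENSRNOG00000020277) at chr10:89089646-89103614. Nfasc (ENSRNOG00000030515) was at chr13:49335408-49522415 and Nrcam (ENSRNOG00000004067) at chr6:64789940-64864996. Ank3 (ENSRNOG00000053288) was at chr20:20105047-20480623 and Sptbn4 (ENSRNOG00000055371) at chr1:84168495-84254645. Gldn (ENSRNOG00000024082) was at chr8:58870516-58914603. Nfasc and Sptbn4 are on the minus strand and the others on the plus strand. In the deposited annotation 3 small RNA genes overlapped Ank3 or Gldn, and none of them had more than 2 reads over the 4 libraries together.

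The gene lengths deposited with the counts, which are shorter than the genomic spans, were between 2383 bases for Gldn and 10488 for Nfasc. The median length of the 7 was 7659 bases, against 2371 over the 14719 genes tested. In the RefSeq promoter table (GRCr8 build) 5 of the 7 genes had an entry. The promoters of Sptbn4 and Gldn are shown because these are an axonal and a Schwann cell gene whose levels went opposite ways across the libraries, as described further on. The 250 bases before the annotated start are printed 5′ to 3′ on the strand of the gene, chr1:91864841-91865090 (minus) for Sptbn4 and chr8:63575020-63575269 (plus) for Gldn, with each CG dinucleotide in capitals.
Sptbn4: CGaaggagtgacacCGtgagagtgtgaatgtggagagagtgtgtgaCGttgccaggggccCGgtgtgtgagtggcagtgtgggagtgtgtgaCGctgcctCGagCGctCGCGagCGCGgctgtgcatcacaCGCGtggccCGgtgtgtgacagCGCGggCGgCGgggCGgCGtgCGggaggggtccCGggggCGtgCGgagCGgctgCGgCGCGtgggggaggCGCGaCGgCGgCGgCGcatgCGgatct
Gldn: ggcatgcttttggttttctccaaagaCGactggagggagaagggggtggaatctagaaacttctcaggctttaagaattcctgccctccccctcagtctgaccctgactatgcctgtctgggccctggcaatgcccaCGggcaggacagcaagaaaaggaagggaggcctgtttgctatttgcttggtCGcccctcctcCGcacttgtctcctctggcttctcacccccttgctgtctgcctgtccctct
The Sptbn4 window held 35 CG dinucleotides, a number that 2.58% of the 33469 rat promoter windows of this length reach or exceed, and 72.4% of its bases were G or C. The Gldn window held 4, which 62.6% of the windows reach or exceed, and 56.4% of its bases were G or C. The median window held 5. These counts describe the sequence only.

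The depth ranged from 21384801 to 25618417 counts per library, so that 3 counts corresponded to between 0.118 and 0.152 CPM (counts in a library scaled to a common depth). Protein-coding genes of the mitochondrial chromosome held 1.46% and 2.52% of all counts after vehicle against 5.38% and 4.68% after cisplatin. The part of this group difference in the estimates below was not tested. The libraries also differed in their cellular make-up. Summed FPKM (fragments per kilobase of gene length at a common depth, which can be set side by side for different genes) of 8 myelinating Schwann cell markers was 10851 and 26291 after vehicle against 7544 and 21974 after cisplatin. That of 10 sensory neuron markers, led by Nefl, was 11662 and 8972 against 15148 and 10785. All 8 Schwann cell markers were thus higher, and all 10 neuronal markers lower, in replicate 2 than in replicate 1 of both groups. Vehicle replicate 1 also stood apart through 5 oligodendrocyte markers, a cell type of the spinal cord, which summed to 30.3 FPKM there and to 3.91, 3.71 and 3.49 in the other libraries. No 2 libraries agreed within sampling noise: even the most alike, vehicle replicate 2 and cisplatin replicate 2, had a chi-square over degrees of freedom of 43.5.

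All 7 genes were well expressed, with between 1231 and 10356 reads per library, and all passed the filter on low counts. Gldn had the highest mean level over the 4 libraries, 81.6 FPKM ± 37.2 (SD, n = 4). Cntnap1 followed at 37.7 ± 13.1, Cntn1 at 37.6 ± 5.68 and Nfasc at 34.5 ± 10.99 FPKM. Ank3 at 19.2 ± 2.14, Nrcam at 14.96 ± 2.25 and Sptbn4 at 8.52 ± 2.55 FPKM were lower. The ranges over libraries overlapped between Gldn and Cntnap1, between Cntnap1 and Cntn1 and between Cntn1 and Nfasc, and in each of these pairs the order changed in at least 1 library. The ranges of Ank3 and Nrcam touched as well, but Ank3 was above Nrcam in 4 of 4 libraries. Nfasc lay above Ank3, and Nrcam above Sptbn4, with no overlap. Gldn was the highest of the 7 in 3 libraries, whereas in cisplatin replicate 1 Cntnap1 was.

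**Figure D1:**
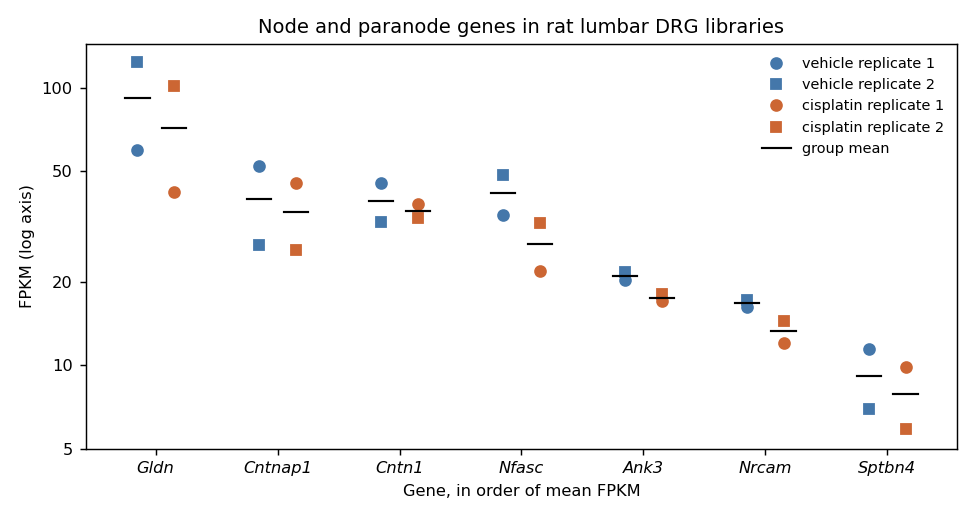
FPKM (log axis) of the 7 genes in each library. Points are single libraries, blue for vehicle and orange for cisplatin, circles for replicate 1 and squares for replicate 2, and black bars are group means. Gldn, Cntnap1, Sptbn4 and Cntn1 show a wider gap between replicates than between groups.

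None of the 7 genes passed the test for a difference between cisplatin and vehicle. In edgeR's quasi-likelihood test, with Benjamini-Hochberg adjustment over all 14719 genes and a fold change of at least 1.5, 0 of 7 were called, where 0.00679% of all genes tested (1 gene) were called. DESeq2 called 0 of 7, and 0.951% of all genes. At an unadjusted p under 0.05 with the same fold change edgeR called 0 of 7, where 5.32% of all genes were called lower and 2.80% higher after cisplatin. All 7 estimates were nevertheless below 0, as were 50.9% of those of all genes, and their median log2 fold change was -0.27 against -0.01 over all genes. The CPM values of 3 genes (Nfasc, Nrcam and Ank3) were lower in each cisplatin-treated library than in either vehicle-treated one, and those of 0 were higher. Among all genes 21.2% lay below in this way and 20.6% above. With 2 libraries per group, an exact permutation of the labels cannot give a two-sided p below 0.333 for any gene, so the p-values rest on a spread modelled across genes, and lower counts in whole DRGs can stand for fewer cells of a type or for less RNA per cell, which cannot be told apart.

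Nfasc, whose product takes part in both the node and the paranode, had the most negative estimate. Its level was 34.9 and 48.6 FPKM in the vehicle-treated libraries and 21.9 and 32.6 FPKM in the cisplatin-treated libraries. Both cisplatin-treated values lay below both vehicle-treated values, although cisplatin replicate 2 was close to vehicle replicate 1. The group means were 41.7 ± 9.74 and 27.2 ± 7.57 FPKM (SD, n = 2 each). The log2 fold change was -0.62 (SE 0.31, 95% interval -1.39 to 0.14), with an unadjusted p of 0.0912 and an adjusted p of 0.550 by edgeR and of 0.543 by DESeq2. Of all genes tested, 11.4% had an estimate at or below that of Nfasc. With 1 library left out at a time its estimate stayed between -0.94 and -0.35.

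Nrcam and Ank3, a nodal adhesion molecule and the adaptor that tethers it to the membrane skeleton, had small differences between the groups. Nrcam stood at 16.3 and 17.1 FPKM after vehicle and at 12.0 and 14.4 FPKM after cisplatin. Ank3 stood at 20.3 and 21.7 FPKM against 17.0 and 18.0 FPKM. For both genes the 2 groups did not overlap, but the cisplatin-treated replicates of Nrcam lay further apart than cisplatin replicate 2 and vehicle replicate 1. The log2 fold change of Nrcam was -0.34 (SE 0.19, interval -0.81 to 0.13, edgeR adjusted p 0.581), and that of Ank3 was -0.27 (SE 0.19, interval -0.74 to 0.19, edgeR adjusted p 0.644). These 2 genes had the most similar patterns of any pair of the 7, and the ratio of Nrcam to Ank3 in FPKM was 0.801 and 0.790 after vehicle and 0.709 and 0.802 after cisplatin.

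Sptbn4, the spectrin below ankyrin-G, did not follow Ank3. Its level was 11.4 and 6.94 FPKM in the vehicle-treated libraries and 9.84 and 5.89 FPKM in the cisplatin-treated libraries. Replicate 1 was the higher one in both groups, and the groups overlapped. The ratio of Sptbn4 to Ank3 was 0.562 and 0.580 in vehicle and cisplatin replicate 1, but 0.320 and 0.327 in vehicle and cisplatin replicate 2. The log2 fold change between the groups was -0.23 (SE 0.35, interval -1.09 to 0.64, edgeR adjusted p 0.848). It turned positive without vehicle replicate 1, the library with the oligodendrocyte markers (0.18), and without cisplatin replicate 2 (0.10).

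The 2 axonal components of the paranodal junction did not differ detectably between the groups. Cntn1, which carries Caspr to the membrane, stood at 45.4 and 32.9 FPKM in the vehicle-treated libraries against 38.2 and 33.9 FPKM in the cisplatin-treated libraries. Cntnap1 stood at 52.2 and 27.2 FPKM against 45.4 and 26.1 FPKM. Replicate 1 was above replicate 2 in both groups for either gene, and the groups overlapped. The log2 fold change was -0.12 for Cntn1 (SE 0.23, interval -0.69 to 0.44, edgeR adjusted p 0.874) and -0.15 for Cntnap1 (SE 0.41, interval -1.17 to 0.86, edgeR adjusted p 0.912). Without vehicle replicate 1 both turned positive, at 0.13 and 0.39, and without cisplatin replicate 2 Cntnap1 was at 0.19. The ratio of Cntn1 to Cntnap1 was 0.870 and 0.841 in replicate 1 and 1.21 and 1.30 in replicate 2 of the vehicle-treated and cisplatin-treated rats, so it too went with the replicate rather than with the treatment.

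Gldn, the gliomedin gene, varied most of the 7 between libraries. Its level was 59.8 and 123 FPKM in the vehicle-treated libraries and 42.2 and 101 FPKM in the cisplatin-treated libraries. Replicate 2 was the higher one in both groups, and the groups overlapped widely. The log2 fold change was -0.36 (SE 0.52, interval -1.66 to 0.93, edgeR adjusted p 0.832), and with single libraries left out it ran from -1.13 (without cisplatin replicate 2) to 0.26 (without vehicle replicate 2), with 0.14 without cisplatin replicate 1.

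**Figure D2:**
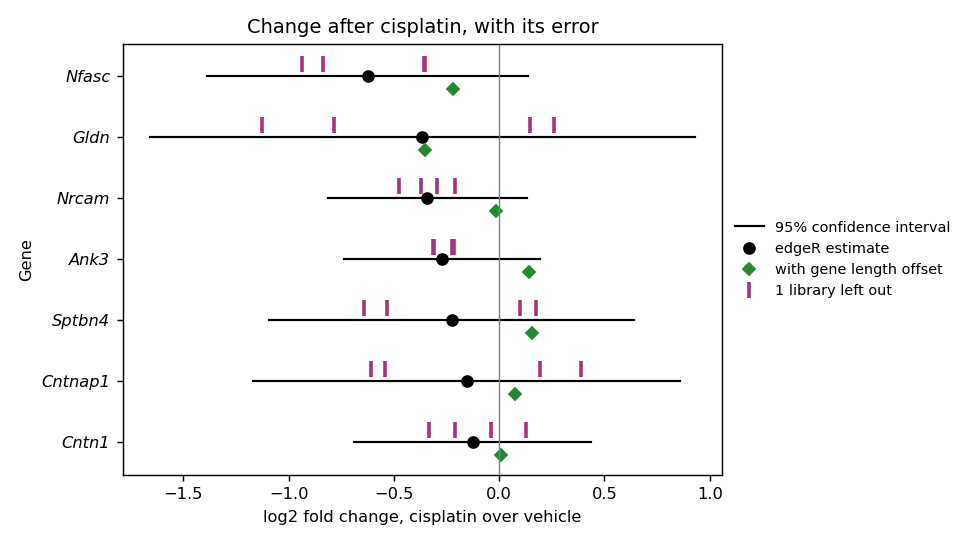
log2 fold change of cisplatin over vehicle for the 7 genes. Black points are edgeR estimates with their 95% intervals, purple ticks the estimates with 1 library left out and green diamonds those with a gene length offset; every interval crosses 0, and the estimate of Nfasc alone stays below -0.2 in each version drawn.

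Differences between rats of the same group were larger than those between the groups for several of these genes. Between replicates 2 and 1, the log2 difference in CPM of Gldn was 1.06 after vehicle and 1.26 after cisplatin, and that of Nfasc was 0.50 and 0.57. Cntnap1 differed by -0.93 and -0.80, Sptbn4 by -0.70 and -0.74 and Cntn1 by -0.45 and -0.17. Ank3 differed by 0.11 and 0.08 and Nrcam by 0.09 and 0.26. The sign was the same in both groups for all 7 genes, with 4 higher and 3 lower in replicate 2. Gldn and Nfasc, and by smaller differences Ank3 and Nrcam, thus varied in the direction of the Schwann cell markers. Cntnap1, Sptbn4 and Cntn1 varied in that of the neuronal markers. Schwann cell over neuronal marker FPKM was 0.930 and 2.93 after vehicle and 0.498 and 2.04 after cisplatin, so this ratio, too, was further apart between replicates than between groups. The part of this make-up in the group differences was not tested.

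**Figure D3:**
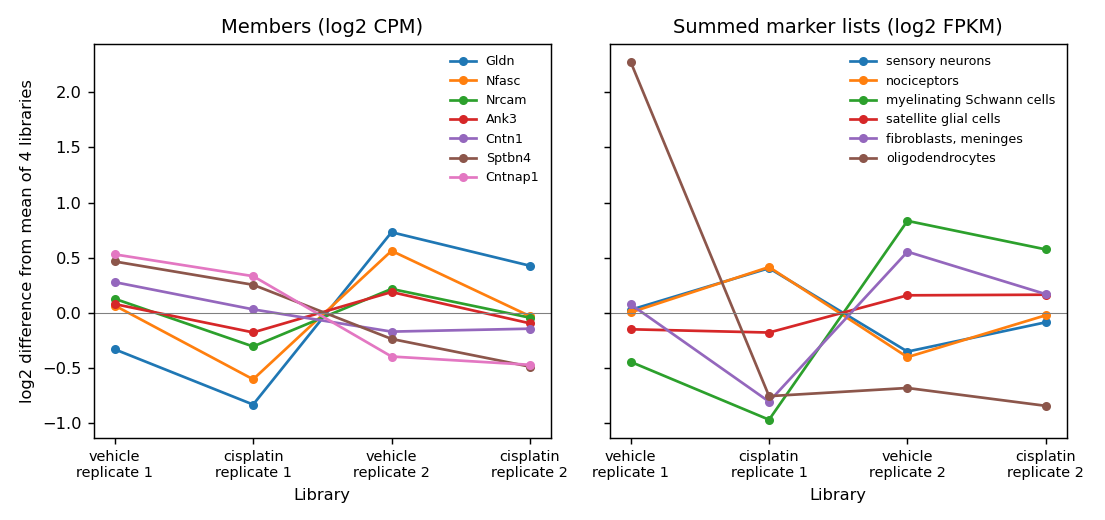
Left, log2 CPM of the 7 genes in each library relative to the mean of the 4 libraries; right, log2 summed FPKM of marker lists on the same scale of log2 units. Lines join values of 1 gene or list and do not mark an order of libraries. Gldn and Nfasc, and less so Ank3 and Nrcam, are higher in replicate 2, with the Schwann cell markers. Cntnap1, Sptbn4 and Cntn1 are higher in replicate 1, with the neuronal markers.

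By the root-mean-square difference of log2 CPM around each gene's own mean over the 4 libraries, Nrcam and Ank3 were the closest of the members, at 0.0741 log2 units. Cntnap1 and Sptbn4 followed at 0.0948, and Cntnap1 and Gldn were the most distant, at 1.02. Among the 9444 protein-coding genes with a mean of at least 10 CPM, the pattern nearest to Ank3 was that of Ddx31 (0.00188), and the one nearest to Nrcam was that of Sf3b1 (0.00867). Cyp46a1 was nearest to Cntn1 (0.00364), Cacna2d3 to Cntnap1 (0.0198) and Pde4dip to Sptbn4 (0.0210). Pard6b was nearest to Nfasc (0.0130) and Fam212b to Gldn (0.0225). With 4 libraries and so many genes near matches arise easily, and they are given as a description.

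The members are mostly long genes. Over all 14719 genes the log2 fold change fell with gene length (Spearman's rho -0.357 across genes, which are not independent replicates). The median log2 fold change was 0.24 in the shortest of 5 equally large length classes, in which 30.1% of genes were below 0, and -0.23 in the longest, in which 77.2% were. Cntnap1, Nfasc, Nrcam, Ank3 and Sptbn4 all belong to the longest class, Cntn1 to the next and Gldn to the middle one. With a length curve removed from each library, 3 of the 7 estimates were below 0 and 4 above, and their median was 0.0078. Nfasc then stood at -0.22 and Gldn at -0.35, whereas Nrcam was at -0.01, Cntn1 at 0.0078, Cntnap1 at 0.073, Ank3 at 0.14 and Sptbn4 at 0.15. The common negative sign of the 7 genes therefore depends on whether length is taken into account. It was also lost when any 1 library was left out. Without vehicle replicate 1 4 of the 7 estimates were below 0, without vehicle replicate 2 or cisplatin replicate 1 6, and without cisplatin replicate 2 5.

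**Figure D4:**
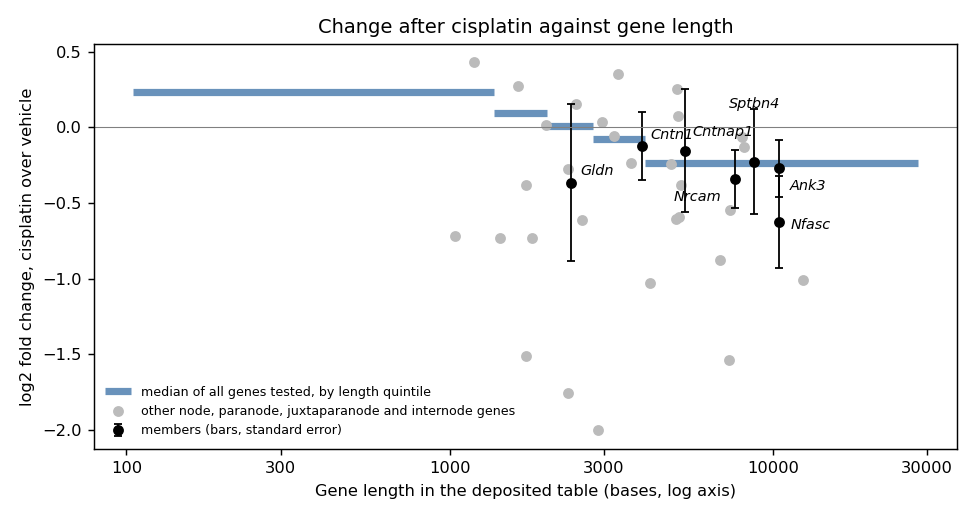
log2 fold change of cisplatin over vehicle against gene length (log axis). Black points are the 7 genes with their standard errors, grey points the other node, paranode, juxtaparanode and internode genes, and blue bars the medians of all genes tested in 5 length classes; the medians fall from 0.24 to -0.23, and of the 5 members in the longest class Nfasc and Nrcam lie furthest below it.

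For comparison, 32 other genes of the same axonal regions were listed: nodal channels, further spectrins, ankyrins and band 4.1 proteins, Schwann cell microvilli and nodal matrix, paranodal loops, juxtaparanode and internode. Of these 30 had a row by name (not Hspg2 and Cntnap2), and all 30 were tested. edgeR called 0, and at an unadjusted p under 0.05 with a fold change of at least 1.5 it called 6 lower and 0 higher, where 5.32% and 2.80% of all genes were. Of the estimates 22 were below 0 and 8 above, where 50.9% of all genes were below 0. Their median log2 fold change was -0.38, or -0.26 with the length offset and -0.14 without vehicle replicate 1. DESeq2 called 2 of the 30 lower, where 0.611% of all genes were called lower. These were Kcna1 and Kcna2, which encode the potassium channels that lie beneath the myelin beside the paranode. Kcna1 was at 24.4 and 22.5 FPKM after vehicle against 7.62 and 8.92 FPKM after cisplatin, with a log2 fold change of -1.51 (SE 0.20, DESeq2 adjusted p 0.000151, edgeR adjusted p 0.509). Kcna2 was at 10.3 and 11.6 FPKM against 2.46 and 4.06 FPKM, with a log2 fold change of -1.75 (SE 0.30, DESeq2 adjusted p 0.00094, edgeR adjusted p 0.509). For both channels the groups were well apart, and the log2 fold change remained at -1.45 and -1.83 without vehicle replicate 1. Whether they changed more than the genes of the paranodal junction was not tested.

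The largest negative estimate of the list was that of Kcnq3, a potassium channel subunit of the node, at -2.01 (SE 0.70, edgeR adjusted p 0.509). It rested on vehicle replicate 1, since Kcnq3 was at 1.43 FPKM there and at 0.394, 0.268 and 0.188 FPKM in the others, and without that library the estimate was -0.78. Sptb, an erythroid-type beta spectrin, had an estimate of -1.54 (SE 0.49, edgeR adjusted p 0.509), with 21.7 and 35.2 FPKM after vehicle and 5.59 and 14.1 FPKM after cisplatin. Both vehicle-treated values of Sptb lay above both cisplatin-treated ones. The most abundant genes of the list were Cadm4 (mean of 549 FPKM), the adhesion molecule of the Schwann cell internode, Cldn19 (225 FPKM), a tight junction protein of myelinating Schwann cells, and Cadm3 (203 FPKM), the axonal partner of Cadm4. Their log2 fold changes were -0.73, -0.38 and 0.16, with edgeR adjusted p-values of 0.699, 0.843 and 0.872, and the groups overlapped for each. Of the 11 listed relatives of the members (other contactins, Caspr proteins, L1 family members and a spectrin) 10 had a row by name. Among these relatives 5 estimates were below 0 and 5 above, and the median was 0.02. Of them 0 were called by edgeR or by DESeq2, and 0 at an unadjusted p under 0.05 with a fold change of at least 1.5. L1cam was the most abundant of them, at a mean of 41.9 FPKM and a log2 fold change of 0.25 (SE 0.27, edgeR adjusted p 0.766).

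The listed markers of cell types gave 0 calls by edgeR. At an unadjusted p under 0.05 with a fold change of at least 1.5, 1 satellite glial, 1 fibroblast and 2 oligodendrocyte markers were called lower and 1 macrophage marker higher. Among all genes tested 5.32% were called lower and 2.80% higher in this way. For the 8 Schwann cell markers the median log2 fold change was -0.51 and 8 of 8 estimates lay below 0, where 50.9% of those of all genes did. That median was, however, 0.34 without vehicle replicate 2, 0.12 without cisplatin replicate 1, -1.02 without vehicle replicate 1 and -1.52 without cisplatin replicate 2. For the 10 neuronal markers the median was 0.26 and 9 of 10 estimates lay above 0. All 7 nociceptor markers, led by Calca, had estimates above 0 (median 0.43), and so had 4 of 5 markers of large myelinated neurons, led by Pvalb (median 0.12). With 1 library left out, the median ran from 0.025 to 0.49 for the neuronal list, from 0.050 to 0.73 for nociceptors and from -0.10 to 0.36 for large myelinated neurons; the last was at -0.10 without cisplatin replicate 1 and at -0.032 without vehicle replicate 2. The summed FPKM of 7 fibroblast and meningeal markers, led by Col3a1, was 1913 and 2661 after vehicle and 1038 and 2038 after cisplatin. Of these 5 estimates were below 0 and 2 (Dcn at 0.06 and Slc6a13 at 0.64, named after their values were seen) above, and the median was -0.68 (-1.10 to -0.23 with 1 library left out). DESeq2 called 1 of the 7, Col1a2, lower (log2 fold change -1.59, adjusted p 0.00779), where it called 0.611% of all genes lower. Satellite glial markers, led by Glul, summed to between 164 and 208 FPKM and had a median log2 fold change of -0.17. Endothelial markers, led by Cdh5, summed to between 12.9 and 18.2 FPKM, with Cldn5 at 0 reads in every library, and macrophage markers, led by Csf1r, to between 12.1 and 13.7 FPKM. Of the oligodendrocyte markers, led by Mog, 3 of 5 passed the filter, with a median log2 fold change of -3.93 that became -0.66 without vehicle replicate 1. The part of these cell types in the differences of the 7 genes was not tested.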

How the data were processed

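RNA of whole lumbar DRGs from 2 vehicle-treated and 2 cisplatin-treated rats was sequenced after poly-A selection. Per the labels the submitters' notes name HISAT2 2.0.5, StringTie 1.3.3b and featureCounts 1.5.0-p3; reads were mapped to Rnor_6.0. The authors deposited raw counts per gene for 33506 genes and FPKM values. Each library's deposited FPKM equals the count over gene length and 1 constant that lies at 1.10, 0.950, 1.03 and 0.938 relative to its total count, close to the TMM factors below. Whether counting used strand was not given in the sources used here. The deposited coordinates are used throughout, except for promoters (RefSeq, GRCr8).

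Groups and replicate numbers were taken from the sample titles. The members, the gene lists and the tests were chosen with earlier results of these data known. edgeR's filterByExpr kept 14719 protein-coding genes. TMM scaling gave factors of 1.10, 0.941, 1.03 and 0.938, and the groups were compared by edgeR 4.0.16 in R 4.3.3 (glmQLFit and glmQLFTest, legacy form off, no block). Calls required a fold change of 1.5 or more together with an adjusted p (Benjamini-Hochberg) below 0.05. All tests were two-sided. CPM values were TMM-scaled. The labels number the libraries as separate rats.

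Alternatives were DESeq2 1.42.0 and its size factors, scaling by library size alone, leaving out the filter, a minimum of 10 counts per library, every biotype, unadjusted p, limma 3.58.1 on log2(FPKM + 1) and log2(FPKM + 0.1), a replicate block, a gene length offset (lowess of span 0.3 per library) and each library left out in turn. edgeR's legacy fit was added after seeing the data. Named beside the members were the listed genes called by edgeR or DESeq2, the 3 highest and the 3 with the largest absolute log2 fold change among the other axonal genes, the highest of each marker list and of the relatives, and the gene of nearest pattern to each member; 1 Schwann cell marker is not reported here and was left out of its list, whose highest gene is therefore not named. The floor of 3 counts speaks to counting error alone, since PCR copies of a molecule were not collapsed by identifiers. The fits were tested on simulated data in which replicates differed only by depth and random spread. Same-numbered libraries did not deviate together there, so that test does not speak to such deviation in these data.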

Additional observations from a re-analysis of the deposited data

How the results depend on the processing

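Of 119 member values recomputed under the alternatives, 103 kept their direction and their side of the threshold, 15 reversed and 1 became a call. The gene length offset reversed Cntn1 (0.0078), Cntnap1 (0.073), Ank3 (0.14) and Sptbn4 (0.15) and moved the median of the 7 genes to 0.0078. Leaving out single libraries gave -0.33 to 0.13 for Cntn1, -0.61 to 0.39 for Cntnap1, -0.64 to 0.18 for Sptbn4 and -1.13 to 0.26 for Gldn; the lower and upper ends for Cntnap1 and Sptbn4 came without cisplatin replicate 1 and without vehicle replicate 1. The median log2 fold change of Schwann cell markers then ran from -1.52 to 0.34, of satellite glial markers from -0.27 to 0.22, of macrophage markers from -0.17 to -0.060 and of oligodendrocyte markers from -4.85 to -0.66. Of the 30 other axonal genes DESeq2 called 2 and an unadjusted p 6, all lower. Library size alone moved the median of all genes to -0.06 and kept all 7 estimates below 0. The cause of these shifts was not tested beyond what each alternative's construction fixes.

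The titles number different rats 1 and 2 in each group, and same-numbered libraries deviated together (Pearson's r 0.444, Spearman's rho 0.568 over genes), but nothing in the labels ties them, so the number is not taken as a pairing. With a replicate block edgeR called 1 member, Nfasc, lower (-0.63, adjusted p 0.00440), where 11.3% of all genes were called, 7.72% of all genes lower. It called 12 of the 30 other axonal genes, and all 12 were lower. With the replicate block and the gene length offset edgeR called 0 members and 9 of the 30, all 9 lower, where 7.35% of all genes were called, 5.47% of all genes lower. The median of the 7 genes was then 0.023, and Cntn1 (0.023), Cntnap1 (0.086), Ank3 (0.14) and Sptbn4 (0.14) were above 0. Over all genes edgeR called 529 higher and 1136 lower with the block alone, 277 and 805 when the length offset was added, and 0 and 1 without either. Each member had at least 1231 reads in every library.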
